A study of Rattus norvegicus with 6 samples.

Results

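The endoplasmic reticulum (ER) chaperones and disulfide isomerases described here are 10 genes of the 16876 in the count table: Calr, Canx, Pdia3, Pdia4, Pdia6, P4hb, Hspa5, Hsp90b1, Dnajb11 and Sdf2l1. They were chosen by name and role after their counts with PSNPs and with IR-813 had been compared, so the same read counts that are given below bore on the choice. Their own values in that comparison are therefore a description with no test, and they support nothing. All 10 passed the filter on low counts.

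The 6 RNA libraries carry the label of microglia from rat primary culture. PSNPs, polystyrene nanoplastics, were present for 24 h in 3 of them, and IR-813, a near-infrared dye, for 24 h in the other 3. Both groups share the culture, in which microglia were shaken off a mixed co-culture grown in serum. The labels give no dose, strain, age or sex, no library labelled untreated was analysed here, and nothing in the labels says that replicates came from separate cultures. P-values therefore rest on sample-to-sample spread that may be only technical. Higher or lower, rose or fell, and decrease always mean with PSNPs relative to IR-813. Which of the groups changed cannot be told. Libraries held between 19166605 and 22553507 counts. PSNPs replicate 3 stood apart, with a correlation of log CPM across genes of at most 0.974 to the other PSNPs libraries, which reached 0.995 with each other.

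Proteins that enter the ER are folded by an ATP-driven chaperone pair, HSP70-type BiP and HSP90-type GRP94, by the lectin chaperones calnexin and calreticulin, which hold glycoproteins, and by protein disulfide isomerases, which form and reshuffle disulfide bonds. When unfolded proteins accumulate, the sensors ATF6, IRE1 and PERK start the unfolded protein response. Its ATF6 and XBP1 arms raise chaperone genes through the ER stress response element (ERSE), and its PERK arm acts through ATF4 and CHOP. In brain immune and glial cells the same chaperones serve the secretory pathway and, for calreticulin, calnexin and PDIA3, the assembly of MHC class I molecules.

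Promoter letters are shown first because ERSE is the textbook control element of this family. RefSeq promoter sequences on build GRCr8, from 250 bases before to 50 bases after the annotated start, were at hand for 8 of the 10 genes, and Pdia3 and Pdia6 were not among them. The motifs searched on both strands were ERSE, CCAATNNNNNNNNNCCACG, and ERSE-II, ATTGGN followed at once by CCACG, which share the letters CCACG. The 5 promoters with an exact match are printed from 5′ to 3′ along the gene, with the fixed letters of each match in capitals.
Hspa5, chr3:38452766-38453065, plus strand: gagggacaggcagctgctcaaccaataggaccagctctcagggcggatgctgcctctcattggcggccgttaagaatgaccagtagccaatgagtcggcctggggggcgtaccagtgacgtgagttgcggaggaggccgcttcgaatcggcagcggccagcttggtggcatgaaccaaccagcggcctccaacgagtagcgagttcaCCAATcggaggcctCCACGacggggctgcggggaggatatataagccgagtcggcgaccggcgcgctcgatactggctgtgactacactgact
Hsp90b1, chr7:23012244-23012543, minus strand: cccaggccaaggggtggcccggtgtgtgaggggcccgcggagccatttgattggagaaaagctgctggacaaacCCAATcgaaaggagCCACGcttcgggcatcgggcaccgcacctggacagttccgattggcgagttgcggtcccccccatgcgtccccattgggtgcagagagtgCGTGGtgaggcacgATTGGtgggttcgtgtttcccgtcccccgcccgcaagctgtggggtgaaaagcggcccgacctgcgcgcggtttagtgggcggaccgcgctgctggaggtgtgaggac
Calr, chr19:40213117-40213416, plus strand: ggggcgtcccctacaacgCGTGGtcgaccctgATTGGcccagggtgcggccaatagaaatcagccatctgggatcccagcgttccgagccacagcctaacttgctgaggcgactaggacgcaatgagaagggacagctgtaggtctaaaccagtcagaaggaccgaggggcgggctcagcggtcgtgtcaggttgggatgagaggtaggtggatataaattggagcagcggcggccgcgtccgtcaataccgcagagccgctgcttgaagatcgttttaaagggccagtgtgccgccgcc
Canx, chr10:35157808-35158107, minus strand: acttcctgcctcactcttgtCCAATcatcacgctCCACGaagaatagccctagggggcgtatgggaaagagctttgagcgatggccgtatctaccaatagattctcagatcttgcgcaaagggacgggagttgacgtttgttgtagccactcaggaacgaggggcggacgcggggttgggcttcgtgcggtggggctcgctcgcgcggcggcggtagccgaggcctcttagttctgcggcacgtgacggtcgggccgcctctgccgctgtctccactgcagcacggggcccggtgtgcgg
Dnajb11, chr11:91672751-91673050, minus strand: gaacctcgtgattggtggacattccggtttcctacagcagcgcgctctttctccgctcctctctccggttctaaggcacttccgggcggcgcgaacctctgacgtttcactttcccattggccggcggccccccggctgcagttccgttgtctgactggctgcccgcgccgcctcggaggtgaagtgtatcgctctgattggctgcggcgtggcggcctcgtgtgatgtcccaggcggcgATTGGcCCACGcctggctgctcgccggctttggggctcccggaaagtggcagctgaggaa
ERSE was found in the promoters of Hspa5, Hsp90b1, Calr and Canx, 4 of 8, with 2 copies in Hsp90b1. It was found in 0.0657% of all 33469 promoters and in 0.183% of the 9309 promoters of tested genes. ERSE-II was found in the Dnajb11 promoter, 1 of 8, and in 0.107% of the promoters of tested genes. The copy in Hspa5 lies from base −43 to −25, and those in Canx and Calr lie farther out, from −230 to −212 and from −232 to −214. Pdia4 held an ERSE with 1 mismatch in CCACG, a looser form found in 1.41% of the promoters of tested genes. P4hb and Sdf2l1 held none of these forms. The XBP1-type core TGACGTGG, whose last 5 letters are CCACG on the other strand, and the ATF4-type element TGATGNAA were found in 0 of the 8 promoters, against 0.902% and 1.99% of the promoters of tested genes. ERSE was searched because it is the textbook element of this family, so its share among these promoters is a description. A match is a run of letters and not a shown binding site.

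**Figure D1:**
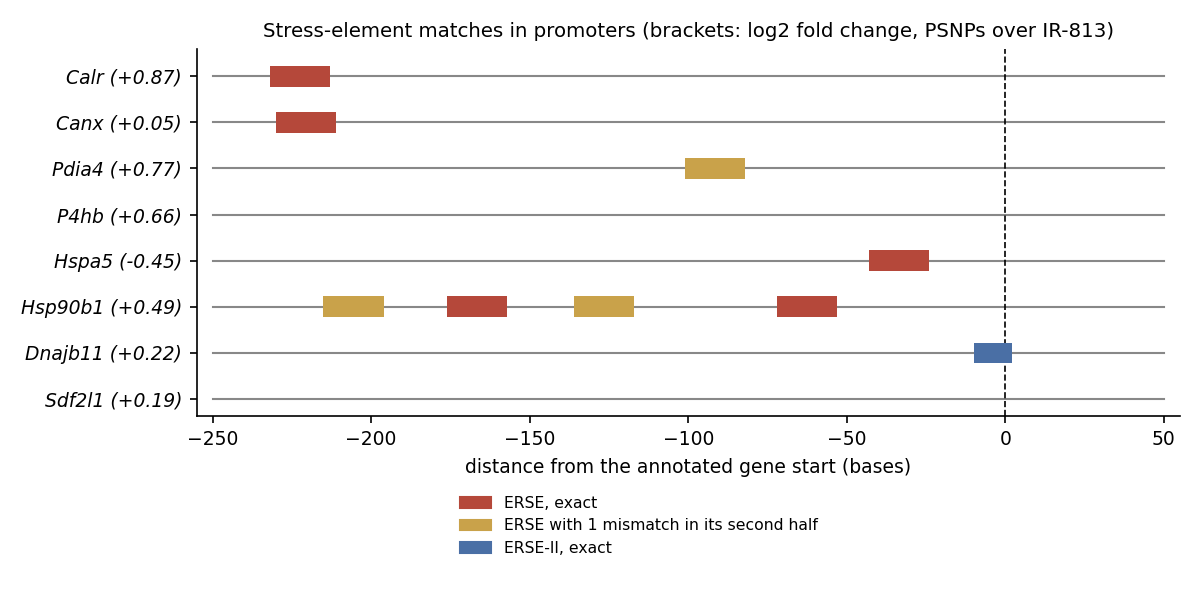
Matches to ERSE and ERSE-II in the promoters of 8 genes, by distance in bases from the annotated start (dashed line). The log2 fold change of CPM, PSNPs over IR-813, stands beside each name, and the genes with an exact ERSE range from −0.45 for Hspa5 to 0.87 for Calr.

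Of the 10 genes, 7 were called higher with PSNPs, where 20.9% of all 11679 tested genes were called higher, and 1 was called lower, where 20.1% were. A call is a Benjamini-Hochberg adjusted p under 0.05 over all tested genes in edgeR's quasi-likelihood test. The median log2 fold change was 0.58 over the 10 genes and −0.01 over all tested genes. All PSNPs libraries lay above all IR-813 libraries for 7 of the 10 genes (30.0% of tested genes) and below them for 1 (31.4%). The groups did not overlap for 8 in all (61.4%). Since the list was chosen with this comparison known, nothing is read from these counts. In CPM, read counts scaled to library sizes with TMM factors, the 10 genes together summed to 7076 ± 41.0 with PSNPs and 5398 ± 106 with IR-813 (SD, n = 3 each). In such bulk libraries fewer cells of a type and less RNA per cell cannot be told apart.

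Under 13 alternatives 6 or 8 of the 10 were called higher and 1 or 0 lower, with these shares of all tested genes, higher and then lower. They were 20.5% and 20.2% with DESeq2 size factors, 16.6% and 24.4% with library size only, 17.4% and 16.9% without the filter, 21.2% and 21.1% with DESeq2's own test, and 19.9% and 20.4% on the deposited log2 values. They were 17.4% and 18.2% with replicate numbers as a block and 24.1% and 22.6% with an offset for transcript length. Leaving out PSNPs replicate 1, 2 or 3 gave 16.8% and 16.2%, 18.9% and 18.2%, or 30.4% and 29.5%, and leaving out IR-813 replicate 1, 2 or 3 gave 12% and 13.3%, 11.4% and 12.5%, or 15.4% and 15.4%.

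**Figure D2:**
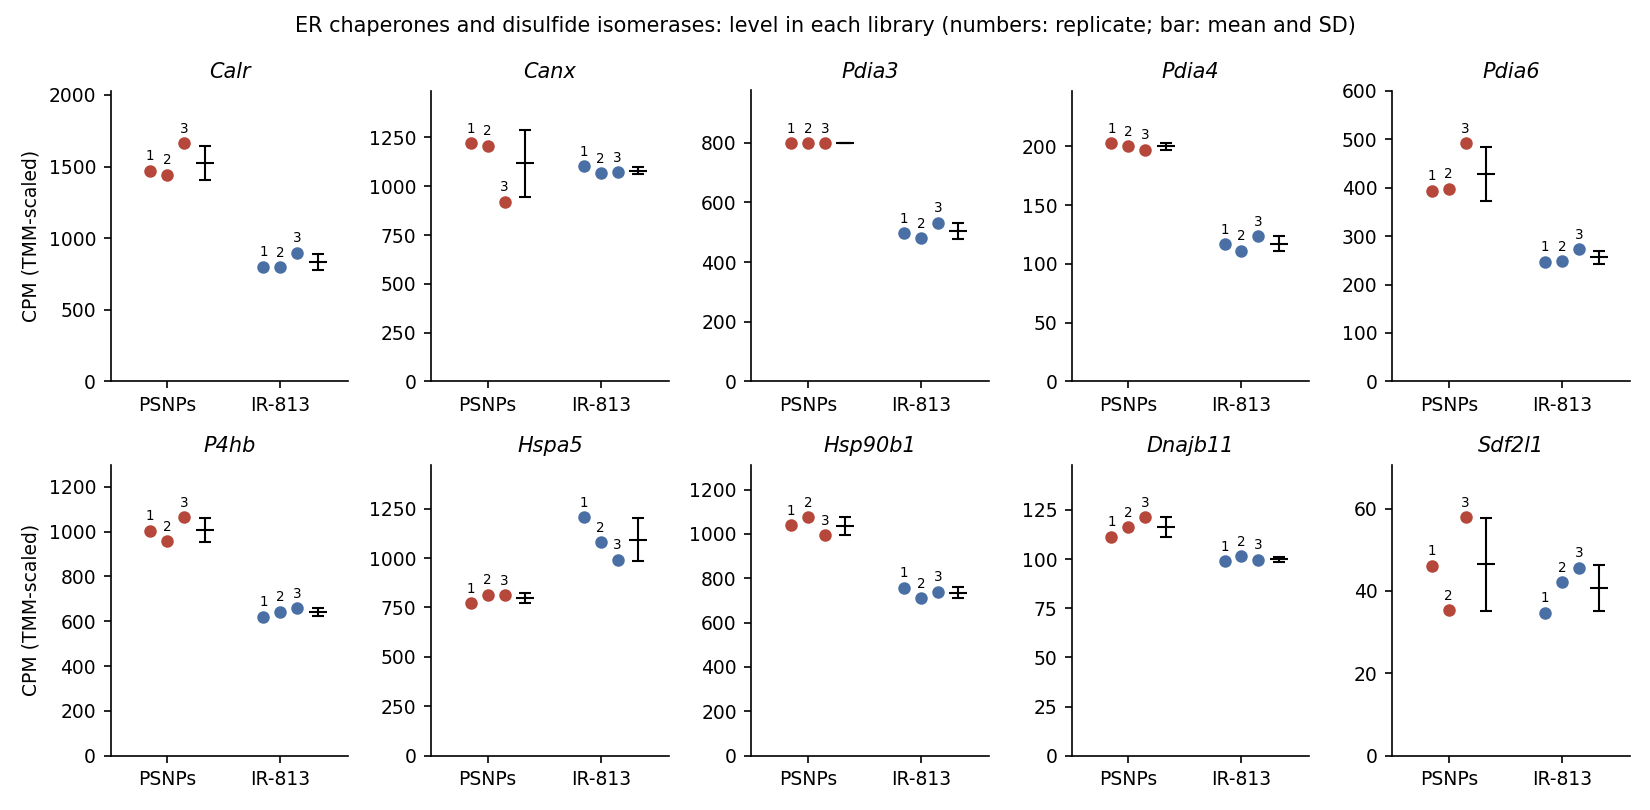
CPM of the 10 genes in each library, PSNPs left and IR-813 right of each panel, with the replicate number above each point and the mean and SD beside it. The groups are apart for 8 genes and overlap for Canx and Sdf2l1, and Hspa5 is the gene whose PSNPs libraries lie below.

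Calr encodes calreticulin, the soluble calcium-binding lectin chaperone. It had 1470, 1442 and 1665 CPM with PSNPs (replicates 1, 2 and 3), against 801, 797 and 898 CPM with IR-813 (replicates 1, 2 and 3). The groups were far apart, and replicate 3 was the highest in each. The difference was 0.87 ± 0.10 on the log2 scale (estimate ± SE), or 1.83-fold, the largest of the 10.

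Canx encodes calnexin, the membrane-bound partner of calreticulin. It stood at 1221, 1208 and 919.6 CPM in the PSNPs libraries, against 1101, 1066 and 1073 CPM in the IR-813 libraries. PSNPs replicates 1 and 2 were above every IR-813 library and replicate 3 was below every one, so that the groups overlapped. The log2 fold change was 0.05 ± 0.13 and was not called, and it was 0.17 and called without PSNPs replicate 3. With library size as the only scaling it was −0.03, so its sign is not settled.

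The disulfide isomerases differed between the groups by similar amounts. Pdia3, which encodes the isomerase that works with the lectin chaperones, stood at 798.2, 799 and 798 CPM in the PSNPs libraries, against 498, 480.3 and 533 CPM in the IR-813 libraries. P4hb encodes PDI itself, also the beta subunit of collagen prolyl 4-hydroxylase, and stood at 1005, 958 and 1065 CPM with PSNPs, against 621, 643 and 657 CPM with IR-813. In both genes the lowest PSNPs library was well above the highest IR-813 library. Their log2 fold changes were 0.67 ± 0.08 for Pdia3 and 0.66 ± 0.08 for P4hb.

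Pdia4, an isomerase gene also known as ERp72, stood at 203, 200.03 and 197 CPM with PSNPs, against 117, 111 and 124 CPM with IR-813. Pdia6, also known as P5, stood at 394, 398 and 492 CPM with PSNPs, against 247, 248 and 272 CPM with IR-813. Neither gene overlapped between the groups, and PSNPs replicate 3 stood above its own group for Pdia6 but not for Pdia4. The log2 fold changes were 0.77 ± 0.07 for Pdia4 and 0.74 ± 0.11 for Pdia6.

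Hspa5 encodes BiP, the HSP70-type chaperone that also holds the stress sensors inactive. It had 770.3, 813 and 813 CPM with PSNPs (replicates 1, 2 and 3), against 1206, 1081 and 992 CPM with IR-813 (replicates 1, 2 and 3). Every PSNPs library was below every IR-813 library, and the IR-813 libraries were the more spread. The log2 fold change was −0.45 ± 0.10, the only negative value of the 10. It was −0.46 and no longer called without IR-813 replicate 2.

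Hsp90b1 encodes GRP94, the HSP90-type chaperone of the ER lumen. It stood at 1040, 1075 and 994 CPM with PSNPs, against 757, 709 and 740.1 CPM with IR-813, without overlap. Its log2 fold change of 0.49 ± 0.08 was opposite in sign to that of Hspa5, and both promoters hold ERSE.

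Dnajb11 encodes ERdj3, a J-domain co-chaperone of BiP. It stood at 111, 116 and 121 CPM with PSNPs, against 98.8, 101 and 99.6 CPM with IR-813. The groups did not overlap, but the difference was small, at 0.22 ± 0.07 on the log2 scale, and the call was lost in 11 of 13 alternative settings. These were the omission of PSNPs replicate 1 (log2 fold change 0.25) or 2 (0.22), of IR-813 replicate 1 (0.21), 2 (0.23) or 3 (0.22), and 6 other choices of scaling, filter, test or block.

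Sdf2l1 encodes a small soluble partner of ERdj3. It stood at 46.1, 35.3 and 57.9 CPM with PSNPs, against 34.7, 42.2 and 45.6 CPM with IR-813. The groups overlapped over most of their range, and the log2 fold change of 0.19 ± 0.19 was not called. Leaving out PSNPs replicate 3 gave 0.00152, leaving out PSNPs replicate 2 gave 0.35, and leaving out IR-813 replicate 1 gave 0.08.

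**Figure D3:**
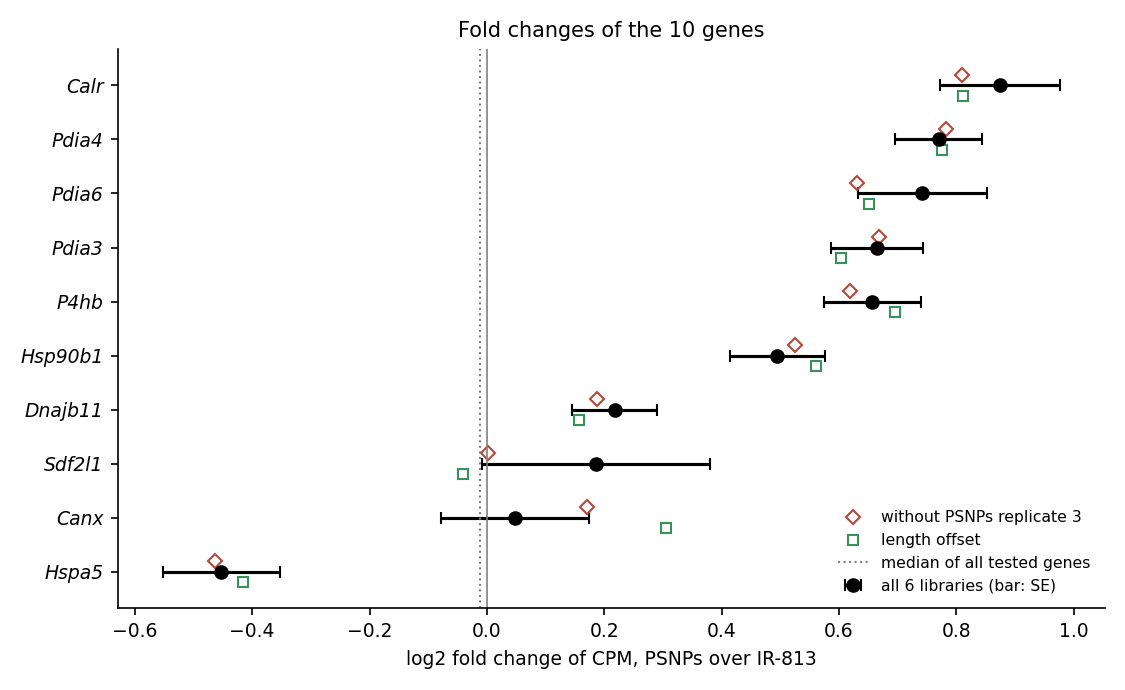
Log2 fold change of CPM, PSNPs over IR-813, for the 10 genes, with the standard error as a bar. Open diamonds leave out PSNPs replicate 3 and open squares carry an offset for transcript length, and these move Canx from 0.05 to 0.17 and 0.30 and Sdf2l1 from 0.19 to 0.00152 and −0.04.

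Transcript length moved with the libraries. A length was implied for each gene by the ratio of its count to the deposited log2 value with the logarithm removed. Over the tested genes with an implied length under 1000 bases, PSNPs replicate 3 was a median of 0.41 log2 units above the mean of PSNPs replicates 1 and 2, and over the 1034 genes of 5000 bases or more it was −0.62. Canx, the longest of the 10 at 5043 bases, was −0.40 in that measure, and Sdf2l1, the shortest at 925 bases, was 0.52. The other 8 genes, from 1615 to 2751 bases, lay between −0.09 for Hsp90b1 and 0.31 for Pdia6. The treatment difference, which includes PSNPs replicate 3, also followed length. Its median log2 fold change was 0.27 in genes under 1000 bases and −0.33 in those of 5000 bases or more. How much of this trend came from that replicate was not tested. With a per-library offset for implied length, an alternative chosen after seeing the data, Canx stood at 0.30 and was called. The other values under it were −0.41 for Hspa5, 0.81 for Calr, 0.78 for Pdia4, 0.16 for Dnajb11 and −0.04 for Sdf2l1. RNA integrity itself was not tested.

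Levels of the 10 genes relative to each other were read on the deposited values with the logarithm removed, taken here as levels per length. On this scale Calr held 27.2%, 26.8% and 29.4% of the sum of the 10 genes in the PSNPs libraries, against 20.1%, 20.7% and 22.3% in the IR-813 libraries. Hspa5 held 10.1%, 10.7% and 10.1% with PSNPs, against 21.4%, 19.8% and 17.4% with IR-813. Calr was thus the most abundant of the 10 in 5 of 6 libraries, and Hspa5 was just above it in IR-813 replicate 1. With PSNPs, Pdia3, P4hb and Hsp90b1, at 14.6% ± 0.424, 12.9% ± 0.353 and 12.1% ± 0.819 of the sum, each held more than Hspa5 (SD, n = 3). With IR-813, Hspa5 at 19.5% ± 2.00 was above Pdia3 at 12.7% ± 0.446, Hsp90b1 at 11.9% ± 0.233 and P4hb at 11.4% ± 0.389, which are close neighbours. Pdia6 held 8.52% ± 0.859 with PSNPs and 7.07% ± 0.312 with IR-813. Canx held 7.14% ± 1.29 with PSNPs, close below Pdia6 in replicates 1 and 2, and 9.55% ± 0.197 with IR-813, above Pdia6. Pdia4, Dnajb11 and Sdf2l1 each held under 3%. Shares of a sum are tied to each other, so a lower share of Hspa5 raises the combined share of the others, though not each one. Mean shares of Canx, Dnajb11 (2.11%, against 2.51% with IR-813) and Sdf2l1 (1.62%, against 1.97%, with overlap) were lower with PSNPs. Those of Calr, Pdia3, Pdia4, Pdia6, P4hb and Hsp90b1 were higher, for Hsp90b1 with overlap.

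**Figure D4:**
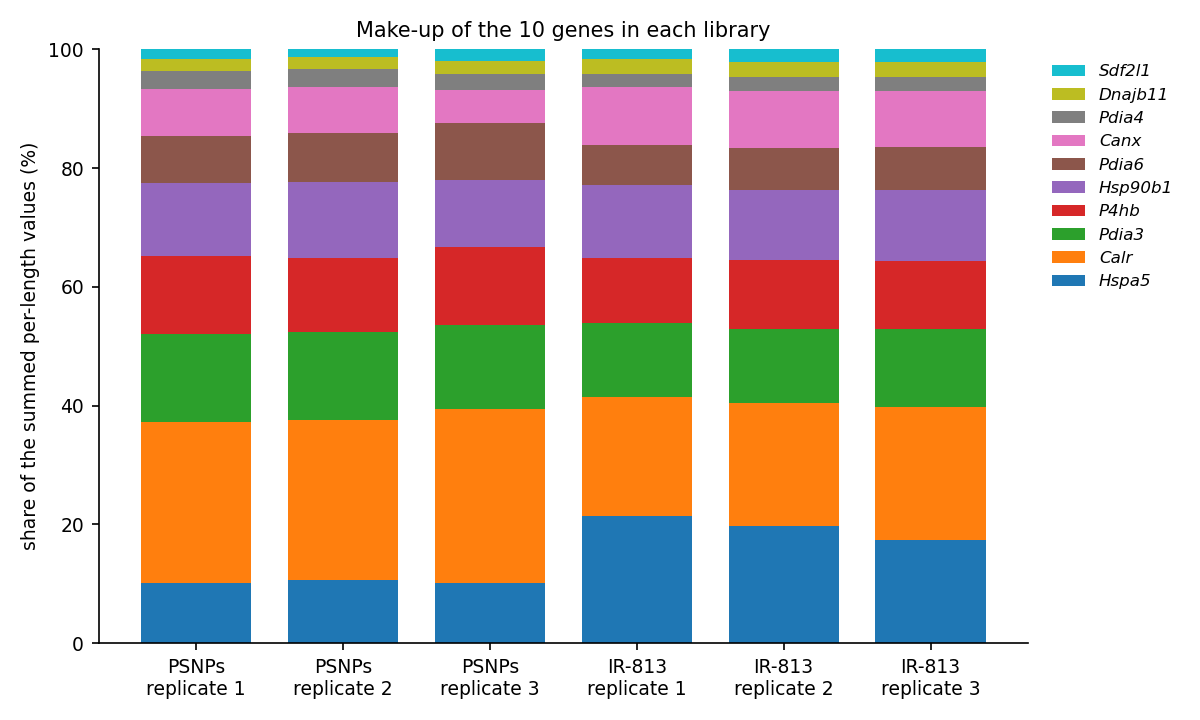
Share of each gene in the summed per-length values of the 10 genes, in percent, for each library, PSNPs left and IR-813 right. Hspa5, at the foot of each bar, takes between 10.1% and 10.7% in the PSNPs libraries and between 17.4% and 21.4% in the IR-813 libraries.

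Genes of 12 roles near these 10 were set beside them. These lists too were chosen with earlier results of these data known, so their counts are a description. The other ER genes, as they are called here, come from 10 lists of ER machinery and of genes that act with it. Of these, 84 of 173 tested genes rose with PSNPs (48.6%, against 20.9% of all tested genes). A further 12 fell (6.94%, against 20.1%), and the median log2 fold change of the 173 was 0.31. Left out of this pool were the PERK and ATF4 branch (0 higher and 10 lower of 12) and the counterparts in the cytosol and mitochondria (1 higher and 7 lower of 13). The counts of each list below, where no library is left out, stand beside the same 20.9% higher and 20.1% lower. Of all tested genes with an implied length under 1000 bases 31.1% were called higher, and of those of 1000 to 2000 bases 26.6%. With the length offset the counts over the 10 lists were 86 and 14, beside 24.1% and 22.6% of all tested genes. The omission of 1 library gave 109 and 21 (PSNPs replicate 3), 55 and 6 (IR-813 replicate 1), or 51 and 6 (IR-813 replicate 2). In the same settings 30.4%, 12% and 11.4% of all tested genes rose, and 29.5%, 13.3% and 12.5% fell.

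Of 21 other disulfide isomerases, oxidases and reductases, 11 rose and 1 fell, with a median log2 fold change of 0.33. Gpx7, an ER peroxidase gene, rose by 1.23 ± 0.16 on the log2 scale (edgeR adjusted p = 0.00143). Sep15, the symbol in the count table for the selenoprotein gene Selenof, rose to 565 ± 71.4 CPM with PSNPs, against 294 ± 6.72 CPM with IR-813 (edgeR adjusted p = 7.84e-04). Qsox2, a sulfhydryl oxidase gene, fell by 0.53 ± 0.10 (edgeR adjusted p = 0.00539), which was −0.27 with the length offset and then not called. Ero1a, the oxidase that reoxidises PDI, stood at 21.7 ± 5.67 CPM with PSNPs and 28.4 ± 0.547 CPM with IR-813 and did not pass (edgeR adjusted p = 0.146, with 0.0327 as the lowest of its alternatives, once PSNPs replicate 3 was left out, and 0.274 as the highest). Creld2, a stress-induced isomerase gene, stood at 45.3 ± 5.81 and 38.8 ± 2.29 CPM and did not pass (edgeR adjusted p = 0.168).

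Of 23 other chaperones and co-chaperones of the ER, 13 rose and 0 fell, with a median of 0.40. Without IR-813 replicate 2, 7 rose, beside 11.4% of all tested genes. The calcium-binding reticulocalbin genes Rcn3 and Rcn2 rose by 1.33 ± 0.14 and 0.88 ± 0.07. Sil1, the nucleotide exchange factor of BiP, rose to 30.2 ± 3.45 CPM with PSNPs, against 16.5 ± 0.942 CPM with IR-813 (edgeR adjusted p = 0.00169). Hyou1, the other exchange factor of BiP, was at 233 ± 10.0 CPM with PSNPs and 234 ± 8.42 CPM with IR-813, a log2 difference of −0.0037 ± 0.07 that was 0.23 with the length offset. Serpinh1, the collagen chaperone HSP47, was at −0.12 ± 0.09 and did not pass (edgeR adjusted p = 0.335). The BiP co-chaperone gene Dnajb9 rose by 0.40 ± 0.09 (edgeR adjusted p = 0.00987, and 0.0593 without IR-813 replicate 2, the highest over all alternatives, the lowest being 0.00132). Manf, a secreted stress protein gene, rose by 0.48 ± 0.12 (edgeR adjusted p = 0.0179), and its adjusted p was 0.0614, 0.0793 and 0.0589 without IR-813 replicate 1, 2 or 3, in a range from 0.0011 to 0.167. The highest was with the length offset, where Manf was at 0.13.

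Of 17 prolyl isomerases and collagen hydroxylases, 11 rose and 1 fell, with a median of 0.59. Without IR-813 replicate 1, 7 rose, beside 12% of all tested genes. Ppic and Ppib, cyclophilin genes, rose by 1.28 ± 0.10 and 0.70 ± 0.15, and Fkbp11 by 1.11 ± 0.19. P4ha1, which encodes an alpha subunit that pairs with PDI, was at −0.18 ± 0.09 and did not pass (edgeR adjusted p = 0.164). P4ha3, another alpha subunit gene, fell by 0.41 ± 0.14 (edgeR adjusted p = 0.0486), and the call was lost without PSNPs replicate 1 (log2 fold change −0.35) or 2 (−0.44), without IR-813 replicate 1 (−0.32) or 2 (−0.37) and in 4 other settings.

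Of 21 genes of N-glycan transfer and the calnexin cycle, 13 rose and 1 fell, with a median of 0.37. Ost4, a small oligosaccharyltransferase subunit gene, rose by 0.82 ± 0.14 and was at 0.44 with the length offset. Edem2, of mannose trimming, rose by 0.79 ± 0.12. Uggt1, which returns unfolded glycoproteins to calnexin and calreticulin, stood at 120 ± 53.2 CPM with PSNPs and 114 ± 4.27 CPM with IR-813 and did not pass (edgeR adjusted p = 0.890), while without PSNPs replicate 3 it rose by 0.39 (adjusted p = 5.81e-04, the lowest of its alternatives, the highest being 0.978). Mcfd2, of glycoprotein export, fell by 0.33 ± 0.10 (edgeR adjusted p = 0.0372), and was not called without PSNPs replicate 1 (−0.33) or 2 (−0.26) or IR-813 replicate 1 (−0.28) or 2 (−0.31), or in 2 other settings.

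Of 23 genes of translocation and signal peptide cleavage, 14 rose and 0 fell, with a median of 0.36. The number that rose was 5, 4 and 8 without IR-813 replicate 1, 2 or 3, beside 12%, 11.4% and 15.4% of all tested genes. The channel genes Sec61a1 and Sec61b rose by 0.50 ± 0.08 and 0.96 ± 0.16. Sec61g rose by 0.65 ± 0.15 (edgeR adjusted p = 0.0153), and was at 0.0572, 0.0640 and 0.0506 in adjusted p without IR-813 replicate 1, 2 or 3, in a range from 2.21e-04 to 0.0640. With the length offset Sec61b was at 0.61 and Sec61g at 0.25.

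Of 17 genes of KDEL receptors and the COPII coat, 8 rose and 0 fell, with a median of 0.27. The number that rose was 5 without IR-813 replicate 1 or 2 and 13 without PSNPs replicate 3. In the same settings 12%, 11.4% and 30.4% of all tested genes rose. All 3 KDEL receptor genes, whose products return escaped lumenal chaperones to the ER, were among the 8 that rose. Kdelr3 rose to 48.5 ± 7.58 CPM with PSNPs, against 18.4 ± 0.854 CPM with IR-813, Kdelr1 to 212 ± 25.8 CPM, against 113 ± 4.31 CPM, and Kdelr2 to 123 ± 11.8 CPM, against 88.5 ± 3.38 CPM (edgeR adjusted p = 4.20e-04, 8.59e-04 and 0.00702).

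Genes of MHC class I peptide loading, the complex in which calreticulin and PDIA3 sit, showed 4 higher and 0 lower of 6, with a median of 0.70. Tapbp, which encodes tapasin, rose to 54.1 ± 3.94 CPM with PSNPs, against 35.6 ± 2.76 CPM with IR-813 (edgeR adjusted p = 0.00406). B2m rose by 0.97 ± 0.12 and the peptide transporter gene Tap1 by 0.82 ± 0.12.

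Of 21 genes of ER-associated degradation, 6 rose and 4 fell, around a median of 0.03, beside 20.9% higher and 20.1% lower among all tested genes. Leaving out PSNPs replicate 2, IR-813 replicate 1 or IR-813 replicate 2 gave 2 that fell, and leaving out PSNPs replicate 3 gave 7. In the same settings 18.2%, 13.3%, 12.5% and 29.5% of all tested genes fell. Derl3, a channel component, rose to 8.62 ± 1.28 CPM with PSNPs, against 1.43 ± 0.115 CPM with IR-813 (edgeR adjusted p = 1.45e-04), and Erlec1, a lectin gene, rose by 0.74 ± 0.09. Herpud1, an early stress-induced gene of this pathway, fell to 50.2 ± 2.28 CPM with PSNPs, against 86.2 ± 9.02 CPM with IR-813 (edgeR adjusted p = 0.00157), and Nploc4, a cofactor of the VCP segregase, fell by 0.61 ± 0.09. Sel1l, the scaffold of the ligase complex, stood at 106 ± 47.1 and 173 ± 6.42 CPM and did not pass (edgeR adjusted p = 0.126), and it was at −0.38 and called without PSNPs replicate 3.

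Of 13 sensors and transcription factors of the unfolded protein response, 2 rose and 4 fell, with a median of −0.19. Beside them, 20.9% of all tested genes rose and 20.1% fell. The number that rose was 4 once PSNPs replicate 3 was dropped and 1 once IR-813 replicate 2 or 3 was. In the same settings 30.4%, 11.4% and 15.4% of all tested genes rose. Ern1, which encodes IRE1, fell to 8.73 ± 3.73 CPM with PSNPs, against 32.1 ± 6.04 CPM with IR-813 (edgeR adjusted p = 0.00499). Its log2 fold change was −1.88 ± 0.33 and lay between −2.11 and −1.56 over 13 alternatives. Atf6 fell to 63.9 ± 34.5 CPM, against 173 ± 30.8 CPM (edgeR adjusted p = 0.0364). Its log2 fold change of −1.43 ± 0.44 lay between −1.69 and −1.04 over 13 alternatives. The adjusted p of Atf6 was 0.109, 0.0955 and 0.0681 without IR-813 replicate 1, 2 or 3 and 0.0507 once PSNPs replicate 1 was dropped. Over its alternatives 6.26e-04 was the lowest and 0.109 the highest. Xbp1 stood at 121 ± 16.1 CPM with PSNPs and 111 ± 2.56 CPM with IR-813 and did not pass (edgeR adjusted p = 0.391). These counts are of whole genes, so the spliced form of Xbp1 and the cleaved form of ATF6 are not seen in them. Eif2ak3, which encodes PERK, was at 0.17 ± 0.12 (edgeR adjusted p = 0.301), and it was called at 0.28 without PSNPs replicate 3 and at 0.40 with the length offset. Mbtps1, the protease that cleaves ATF6, rose by 0.63 ± 0.10, and Creb3 by 0.39 ± 0.10, a call lost without IR-813 replicate 2 (0.37) or 3 (0.36) and with the length offset (0.20).

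Of 12 genes of the PERK and ATF4 branch, 10 fell and 0 rose, around a median of −1.61. Atf4 stood at 208 ± 32.6 CPM with PSNPs and 515 ± 65.1 CPM with IR-813, and Ddit3, which encodes CHOP, at 27.0 ± 5.26 and 70.9 ± 9.67 CPM (edgeR adjusted p = 7.68e-04 and 0.00109). Trib3 and Chac1 fell to log2 fold changes of −4.28 ± 0.25 and −3.79 ± 0.23. Counterparts of the 10 genes in the cytosol and mitochondria showed 7 lower and 1 higher of 13, with a median of −0.39. Their largest decreases were Hspa1a and Hspa1b, inducible HSP70 genes, at −8.02 ± 0.33 and −7.80 ± 0.24, whose split is uncertain because they are near-identical. Trap1, the mitochondrial HSP90 gene, rose by 0.43 ± 0.08. ER calcium genes showed 2 higher (Orai1, 0.44 ± 0.13, and Tmbim6, 0.24 ± 0.07) and 1 lower (Stim2, −0.36 ± 0.10) of 11. Beside them, 20.9% of all tested genes rose and 20.1% fell. Of the 11, 0 were called once IR-813 replicate 1, 2 or 3 was left out. In the same settings 12%, 11.4% and 15.4% of all tested genes rose, and 13.3%, 12.5% and 15.4% fell. The pump gene Atp2a2 was at −0.04 ± 0.15 and did not pass (edgeR adjusted p = 0.853), and it was at 0.12 without PSNPs replicate 3 and at 0.19 and called with the length offset.

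**Figure D5:**
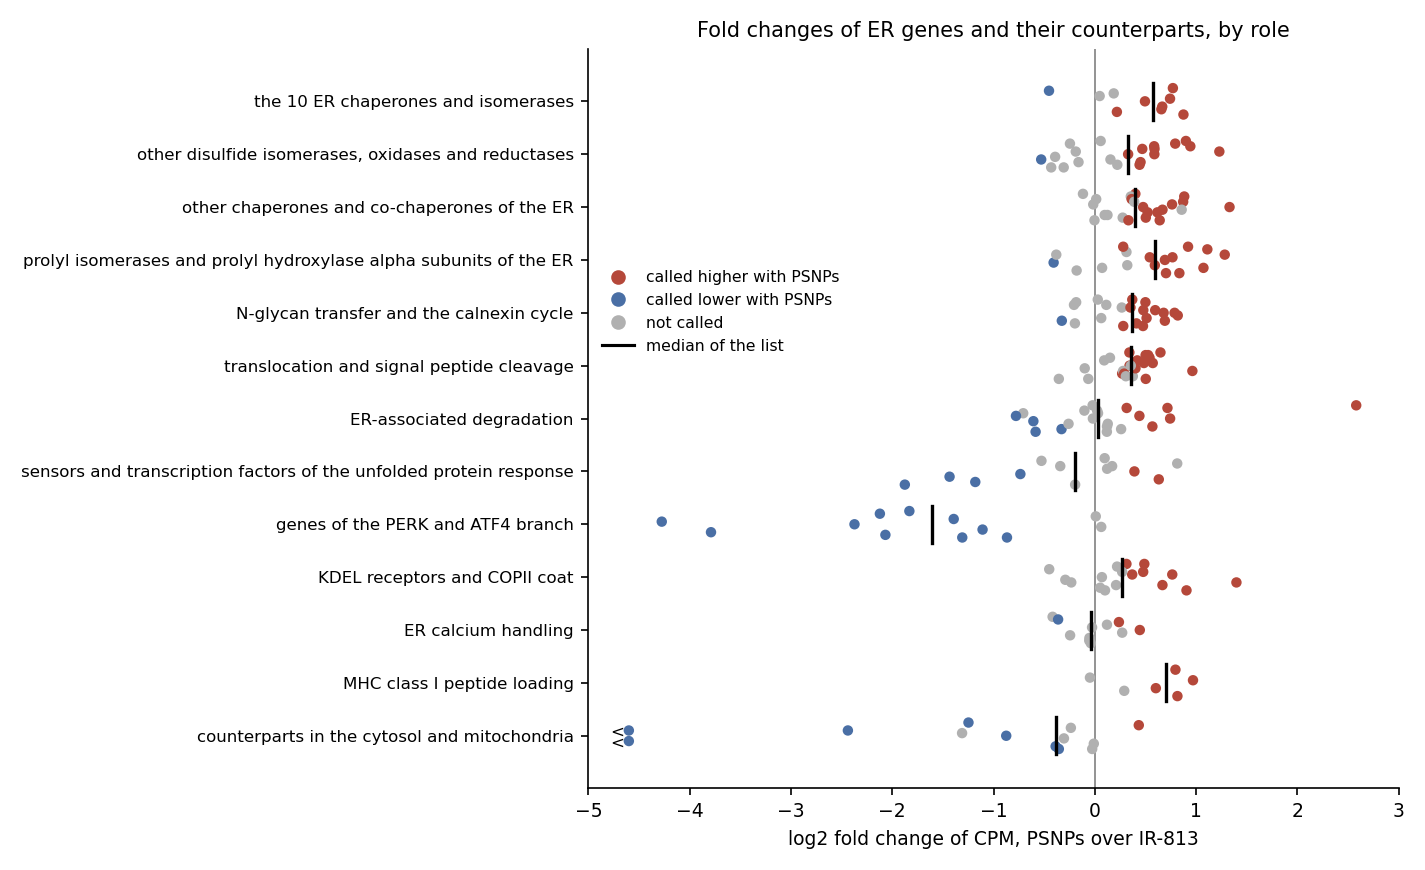
Log2 fold change of CPM, PSNPs over IR-813, for the 10 genes (top row) and for the tested genes of 12 lists, each point a gene and each black bar a median. Medians run from −1.61 for the PERK and ATF4 branch to 0.70 for MHC class I peptide loading, and 2 points left of the axis range (marked <) are Hspa1a and Hspa1b.

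ERSE or ERSE-II also lay in the promoters of 7 other listed ER genes, Creld2, Derl3, Dnajc3, Ero1b, Herpud1, Hyou1 and Xbp1. Derl3 was called higher and Herpud1 lower, and the other 5 were not called. Among all 21 tested genes outside the 10 that held either element, 2 were called higher and 5 lower, with a median log2 fold change of −0.02. Among the 8838 with neither, 20.9% were called higher and 19.6% lower.

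The markers show a mixed culture, and the summed levels of several cell types moved with the treatment. The marker lists were chosen with earlier results of these data known. Beside their calls, 20.9% of all tested genes were called higher and 20.1% lower. Summed CPM over 10 microglia markers lay between 654 and 831 in the PSNPs libraries and between 1344 and 1837 in the IR-813 libraries, and 8 of 10 were called lower. Over 14 oligodendrocyte-lineage markers it lay between 4522 and 5227 with PSNPs and between 7324 and 8504 with IR-813, with 13 called lower and 1 higher, and over 12 neuron markers between 172 and 213 with PSNPs and between 519.7 and 541 with IR-813, with 8 of 10 tested called lower. Over 12 astrocyte markers it lay between 7803 and 8612 with PSNPs and between 6551 and 8368 with IR-813, with 5 called higher and 2 lower of 11 tested. Fibroblast, pericyte and endothelial markers summed to between 86.5 and 98.4 CPM with PSNPs and between 110 and 166 CPM with IR-813, with 3 of 7 tested called lower and Col1a2 at 0. Infiltrating myeloid and lymphoid markers summed to at most 0.159 CPM, with 6 of 8 at 0 in every library. The 10 ER genes are used by all of these cell types, and the part of cell make-up in their values was not tested.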

How the data were processed

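Sample titles gave the groups and replicate numbers. Columns headed con belong to samples titled IR-813 and columns headed NPS to samples titled PSNPs. No label says whether con means any other control. The authors deposited whole-number read counts per gene symbol, the main source, and log2 values for each library. No label states how these were scaled. The submitters' processing notes name bcl2fastq and build mRatBN7.2. Aligner, counter, annotation and strand setting were not given in the sources used here, so reads shared with copies or overlapping genes (Catsper2 overlaps Pdia3) are uncertain. With the logarithm and a pseudocount of 1 removed, the deposited log2 values followed count over a gene factor and a library factor within 0.05 log2 units for at least 99.0% of 10559 genes per library. The gene factor served as an implied length. It lay within the gene's span for 99.8% of 9829 genes, a weak check.

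Counts were filtered with filterByExpr (11679 genes left), scaled by TMM, and fitted in edgeR 4.0.16 under R 4.3.3 (glmQLFit, glmQLFTest; treatment as the only term; Benjamini-Hochberg adjusted p under 0.05). The script was tested on simulated data. The SE is the log2 fold change divided by the square root of F. Alternatives used DESeq2 1.42.0, limma 3.58.1, other scaling, no filter, a replicate block, each library left out, and a length offset. An exact test of 3 against 3 cannot go below p = 0.1 and was not used.

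The 10 genes, the 12 role lists and the marker lists were chosen with earlier results of these data known. Named genes are the 10, the 2 highest and 2 lowest called genes of each list at 5 CPM or more in either group, and 25 fixed genes. Of the listed genes, 6 were found under a synonym, 12 with no matching symbol were not used here, and those under the count filter were not tested. Gene names and promoters came from RefSeq tables on GRCr8, and no coordinates were moved between builds.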

Additional observations from a re-analysis of the deposited data

How the results depend on the processing

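The median log2 fold change of the 10 ER genes was 0.58 and stayed between 0.50, with library size as the only scaling, and 0.59 over 13 alternatives. Scaling by library size alone moved the median of all tested genes from −0.01 to −0.09, and 40.5% of its calls were higher, against 50.9% with TMM. Leaving out 1 library at a time gave 1339 to 3591 genes called higher and 1473 to 3478 called lower, 6 to 8 and 0 to 1 of the 10 ER genes, and 51 to 109 and 6 to 21 of the other ER genes. Over all genes the lowest counts came without IR-813 replicate 2, whose omission also left Hspa5 uncalled, and the highest without PSNPs replicate 3. Calr, Pdia3, Pdia4, Pdia6, P4hb and Hsp90b1 kept their call in all 13 alternatives, Hspa5 in 12 and Dnajb11 in 2. Same-numbered libraries of the groups did not deviate together in every pair (correlations of deviations −0.0058, 0.014 and 0.12). PSNPs replicate 3 correlated best with its own number, and PSNPs replicates 1 and 2 did not. So few libraries cannot show whether those with the same number shared a preparation. With the replicate block there were 2035 higher and 2124 lower genes, 6 and 1 of the 10 ER genes, and 75 and 9 of the other ER genes. A few values near 0 changed sign. Hyou1 was at 0.0037 with DESeq2 size factors and with DESeq2's test, 0.0039 without the filter, 0.0053 on the deposited log2 values and 0.23 with the length offset, and between −0.031 and 0.029 with a library left out. Uggt1 was at −0.012 with library size only, −0.047 on the deposited log2 values and −0.051 with the replicate block, and between −0.16 and 0.39 with a library left out. Atp2a2 was at 0.19 with the length offset and between −0.15 and 0.12 with a library left out, and Tmbim6, called at 0.24 in the report, at −0.0035 with the length offset. Allowing 1 mismatch in CCACG gave 5 in place of 4 promoters with ERSE. With 3 libraries a group the smaller differences are not resolved at this replication.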
